A study of Mus musculus with 192 samples.

Results

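The Cyp4a fatty acid hydroxylase genes described here are 6 of the 54752 genes in the deposited table, namely Cyp4a10, Cyp4a12a, Cyp4a12b, Cyp4a14, Cyp4a31 and Cyp4a32. They were picked by gene name, with their levels in kidney and liver of flown and ground mice already known. Their flight responses in those 2 tissues are therefore a description without a test. Genotype differences, the difference between genotypes in the flight response and the other 7 tissues were tested. In kidney and liver those tests use the libraries whose levels were already known. Their p-values are therefore not independent of how the genes were picked. Whether levels in the other 7 tissues were known as well is not stated, so independence cannot be claimed for their tests either.

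Cyp4a enzymes are cytochrome P450s of the endoplasmic reticulum that add a hydroxyl group to the terminal carbon of fatty acids. This ω-hydroxylation opens a route by which fatty acids become dicarboxylic acids that peroxisomes can shorten, and in the kidney it also turns arachidonic acid into 20-HETE, a lipid that acts on vessel tone and salt transport. Cyp4a10 and Cyp4a14 are classical targets of the fatty acid receptor PPARα, whereas Cyp4a12a is the male-biased arachidonate hydroxylase of mouse kidney.

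RNA was sequenced from 9 tissues of male mice in 192 samples, 12 weeks old and of strain C57BL/6 per the labels (C57BL/6J in the study's methods). The methods place that age before launch, so flown mice were older when dissected. Wild-type (WT) mice were either flown to the International Space Station for about a month (FL_WT) or held as ground controls (GC_WT), and the same was done with Nrf2-KO mice (FL_KO and GC_KO). Nrf2-KO mice carry a germline disruption of Nfe2l2, which encodes the stress-responsive factor Nrf2, in every cell, and had been selected for the absence of a hepatic shunt. All mice lived in single cages. Mice for flight were switched from their first diet to a flight food before launch, per the methods. For ground mice the methods name that first diet, and whether the foods differed in make-up is not stated. Flown mice were dissected in California after splashdown and ground mice in Japan some months later. Flight therefore cannot be told apart from site, season, return and any difference in food. There were 3 mice per group in kidney (Kid) and mandibular bone (MdB) and 6 elsewhere, and FL_KO mouse 04, which had an intestinal hemorrhage on return, was left out of all values unless stated, which left 5 FL_KO mice in liver (Liv) and 2 in MdB. In bulk tissue, fewer cells of a type and less RNA per cell cannot be told apart.

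The 6 genes lie side by side on chromosome 4 (GRCm38) within 323 kb. In order they are Cyp4a12a (115299046 to 115332815, plus strand), Cyp4a12b (115411624 to 115439034, plus), Cyp4a14 (115486200 to 115496142, minus), Cyp4a10 (115518264 to 115533649, plus), Cyp4a31 (115563649 to 115579015, plus) and Cyp4a32 (115600969 to 115621602, plus). Their coding sequences fall into close pairs and a trio, which matters because reads were 76 bases long. The first 76 coding bases follow, 5′ to 3′, from GENCODE vM21 transcripts, with capitals where a gene differs position by position from Cyp4a10 in the same window. Cyp4a12a is shown without a comparison.
Cyp4a10: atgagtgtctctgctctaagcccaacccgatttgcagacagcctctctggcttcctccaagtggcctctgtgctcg
Cyp4a32: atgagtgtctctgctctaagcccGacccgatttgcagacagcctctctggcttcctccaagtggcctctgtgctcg
Cyp4a31: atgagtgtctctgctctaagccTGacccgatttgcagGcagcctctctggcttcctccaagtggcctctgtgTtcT
Cyp4a14: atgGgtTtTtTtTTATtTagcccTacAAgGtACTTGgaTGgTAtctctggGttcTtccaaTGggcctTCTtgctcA
Cyp4a12a: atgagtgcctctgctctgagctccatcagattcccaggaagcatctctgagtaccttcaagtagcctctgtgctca

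Cyp4a32 differed from Cyp4a10 at 1 of these 76 bases, Cyp4a31 at 5 and Cyp4a14 at 30, and Cyp4a12b carried the same 76 bases as Cyp4a12a. Over the whole coding sequence Cyp4a12a and Cyp4a12b were 98.5% identical, Cyp4a10 and Cyp4a32 97.2%, Cyp4a10 and Cyp4a31 96.6%, and Cyp4a14 at most 75.8% identical to any other member. Of all 76-base words in the transcripts of each gene, 40.6% of those of Cyp4a12a, 41.1% of Cyp4a12b, 27.5% of Cyp4a32, 18.1% of Cyp4a10 and 12.5% of Cyp4a31 also occurred in another gene, and 0 of 2524 did so for Cyp4a14. Values of Cyp4a14 thus rest on reads of its own, whereas the other members depend on how RSEM, the authors' read counter, split shared reads, and their values are uncertain to that extent.

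Libraries held 8.01 to 16.3 M expected counts, with 13.8 to 14.7 M in Kid and 14.4 to 15.3 M in Liv. Levels of Nfe2l2 were 48.6 to 70.9 TPM (transcript abundance per length, scaled to the same sum in every library) in Kid of WT mice and 22.0 to 34.6 in Nrf2-KO mice, and 34.8 to 66.2 and 13.1 to 24.1 in Liv, so that the KO libraries were lower throughout but not at 0; whether the reads lie outside the disrupted part was not analysed here. In Kid all 8 proximal tubule markers were above 0 in every group, and 0 of 8 were called between FL_WT and GC_WT or between FL_KO and GC_KO. Summed over the list, they ran from 67360 to 72340 TPM in GC_WT, 55640 to 58950 in FL_WT, 66060 to 89640 in GC_KO and 53540 to 61040 in FL_KO. Slc22a6 and Slc7a13, transporters of the proximal tubule, were called lower in GC_KO than in GC_WT and in FL_KO than in FL_WT. In Liv all 5 hepatocyte markers were present, with Cps1, a urea cycle enzyme, called lower in flown mice of both genotypes. The erythroid markers Hbb-bs and Hba-a1 and the leukocyte marker Ptprc were called lower, and Cidec, a lipid droplet protein of fat cells, higher in FL_WT than in GC_WT Liv. FL_KO kidney 11 held 47.6 TPM of Alb, against at most 7.47 in the other kidneys. The part of these markers in the results below was not tested.

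Summed over the 6 genes, the Kid level was 536.5 ± 65.9 TPM in GC_WT, 1011 ± 64.7 in FL_WT, 909.2 ± 207 in GC_KO and 1373 ± 77.3 in FL_KO (mean ± SD, n = 3 each). In Liv it was 860.9 ± 249 TPM in GC_WT, 1765 ± 338 in FL_WT, 1146 ± 141 in GC_KO and 2683 ± 675 in FL_KO (n = 6, 6, 6 and 5). The make-up differed between both tissues. Cyp4a31 gave 35.5% ± 2.20 of the family's TPM in GC_WT Kid but 0.614% ± 0.215 in GC_WT Liv, and Cyp4a14 gave 1.52% ± 0.602 and 22.1% ± 8.43. In flown WT mice the Cyp4a14 share was 18.6% ± 1.99 in Kid and 49.5% ± 5.82 in Liv, so that this gene alone made up the largest part of the Liv family total in FL_WT and FL_KO.

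**Figure D1:**
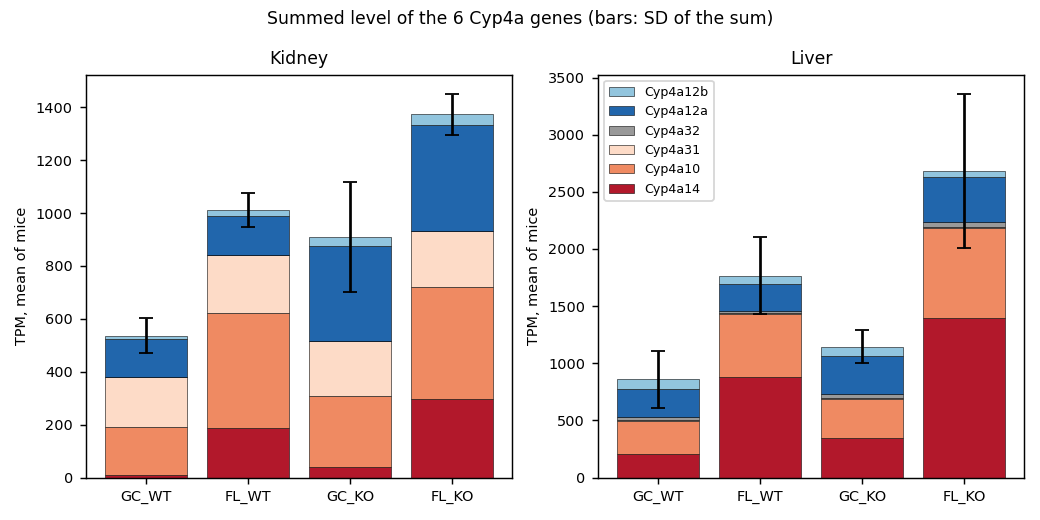
Mean TPM of the 6 genes, stacked, in each group of mice in kidney and liver, with the SD of the summed level as error bars (n = 3 per group in kidney, 5 or 6 in liver). The Cyp4a14 part grows from 8.38 to 189 TPM between GC_WT and FL_WT in kidney and from 204 to 884 in liver, and Cyp4a31 is seen in kidney.

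Cyp4a14 showed the widest difference between flown and ground mice. In Kid its TPM was 5.78, 6.02 and 13.3 in the GC_WT mice and 157, 191 and 220 in the FL_WT mice. Nrf2-KO mice had 16.4, 51.8 and 52.1 TPM on the ground and 260, 285 and 349 after flight. Flown and ground mice did not overlap in either genotype, and the fitted difference was 4.42 ± 0.417 in WT and 2.84 ± 0.376 in Nrf2-KO mice (log2 fold change ± SE), which is 21.5-fold and 7.16-fold. Here and below, overlap is a description only. The share of all genes without overlap was not counted, and groups this small can separate by chance. In Liv the lowest, median and highest Cyp4a14 TPM was 60.7, 181 and 368 in GC_WT and 531, 950 and 1160 in FL_WT. In Nrf2-KO mice it was 164, 369 and 482 on the ground and 1023, 1361 and 1978 after flight. The groups again did not overlap, with log2 fold changes of 2.08 ± 0.341 in WT and 1.87 ± 0.349 in Nrf2-KO mice.

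Cyp4a10, the other PPARα-responsive member, moved less. Its Kid TPM was 156, 168 and 227 in GC_WT and 411, 418 and 465 in FL_WT, a log2 fold change of 1.16 ± 0.132. In Nrf2-KO mice it was 237, 259 and 304 on the ground and 404, 417 and 443 after flight (0.59 ± 0.131), without overlap in either genotype. Summing the counts of Cyp4a10, Cyp4a31 and Cyp4a32 before the fit, which leaves no split of reads among them, gave 0.70 and 0.32. In Liv, Cyp4a10 ranged from 157 to 424 TPM in GC_WT with a median of 272, and from 326 to 807 in FL_WT with a median of 536. The Nrf2-KO mice ranged from 212 to 535 on the ground (median 339) and from 457 to 1170 after flight (median 754). Flown and ground mice overlapped in both genotypes, and the log2 fold changes were 0.85 ± 0.282 and 1.07 ± 0.294.

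**Figure D2:**
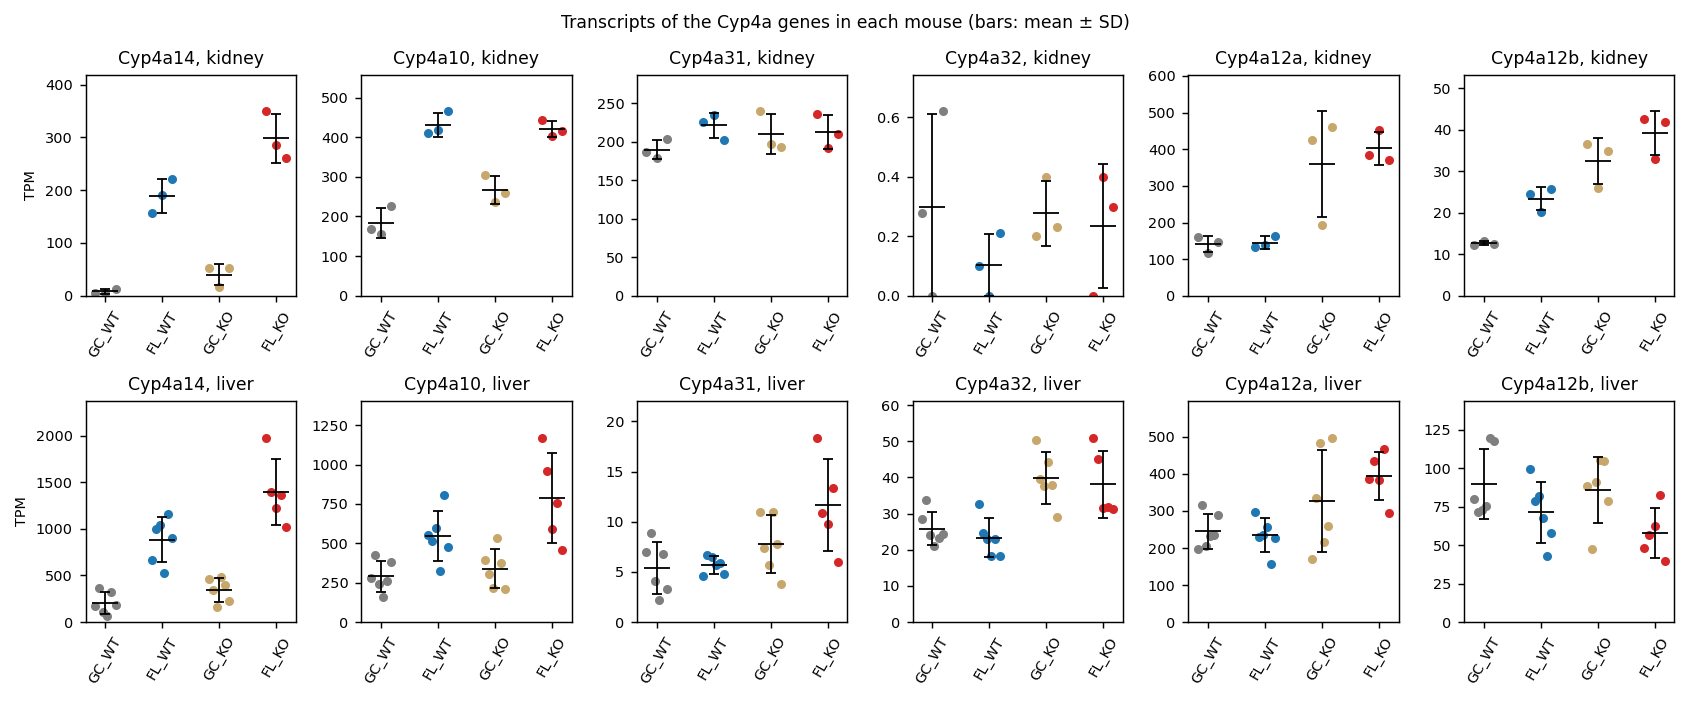
TPM of each Cyp4a gene in every mouse (points), by group, in kidney (top) and liver (bottom), with mean and SD in black. Kidney Cyp4a14 is at or below 13.3 TPM in GC_WT and at or above 157 in FL_WT, whereas Cyp4a31 overlaps between all groups in kidney.

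The near-identical relatives of Cyp4a10 were split by tissue. Cyp4a31 was at 179 to 239 TPM in the 12 kidneys and at 2.19 to 18.4 TPM in the 23 livers. Cyp4a32 had the opposite pattern, with 18.2 to 51.0 TPM in Liv and 0.0 to 0.62 in Kid, where it did not pass the filter on low counts and 3 of 12 libraries had none. Kid Cyp4a31 overlapped between flown and ground mice, with log2 fold changes of 0.15 ± 0.109 in WT and -0.05 ± 0.109 in Nrf2-KO mice. In Liv the values were 0.03 ± 0.315 and 0.44 ± 0.317 for Cyp4a31 and -0.20 ± 0.192 and -0.20 ± 0.199 for Cyp4a32. Each of these estimates lay below that of Cyp4a10 in the same tissue and genotype, and the difference between genes was not tested.

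The Cyp4a12 pair, whose Cyp4a12a product is the main renal arachidonate hydroxylase of male mice, showed small flight differences. Cyp4a12a was at 118, 147 and 160 TPM in GC_WT Kid and 132, 140 and 164 in FL_WT (log2 fold change -0.04 ± 0.236), and at 194, 424 and 460 in GC_KO and 371, 383 and 452 in FL_KO (0.10 ± 0.234). Flown and ground mice overlapped in each genotype, and the lowest GC_KO mouse, number 11, was the GC_KO mouse with the least Cyp4a14 as well. Cyp4a12b in Kid was at 12.3, 12.4 and 13.3 TPM in GC_WT and 20.2, 24.4 and 25.7 in FL_WT (0.82 ± 0.138, no overlap). In Nrf2-KO mice it was at 26.1, 34.9 and 36.5 on the ground and 33.1, 41.9 and 42.5 in flown mice (0.20 ± 0.130, overlapping). In Liv, Cyp4a12b had medians of 77.6 TPM in GC_WT, 73.0 in FL_WT, 89.4 in GC_KO and 56.8 in FL_KO, with overlapping groups and log2 fold changes of -0.36 ± 0.217 in WT and -0.72 ± 0.230 in Nrf2-KO mice. The direction of the Cyp4a12b estimate was thus opposite in both organs. Of the TPM of both genes, Cyp4a12b made up 8.33% ± 1.58 in GC_WT, 13.9% ± 1.53 in FL_WT, 8.93% ± 2.53 in GC_KO and 8.98% ± 1.88 in FL_KO Kid. In Liv the shares were 26.8% ± 5.16 in GC_WT, 23.1% ± 2.54 in FL_WT, 22.9% in GC_KO (range 12.5 to 34.0%) and 12.7% ± 1.74 in FL_KO. Liv Cyp4a12a ranged from 157 to 316 TPM in WT mice and from 171 to 498 in Nrf2-KO mice. Among the 6 GC_KO livers, mice 04 and 12 had the highest Cyp4a12a, 483 and 498 TPM, and the lowest Cyp4a14, 164 and 223 TPM, and the lowest Cyp4a10, 219 and 212 TPM.

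**Figure D3:**
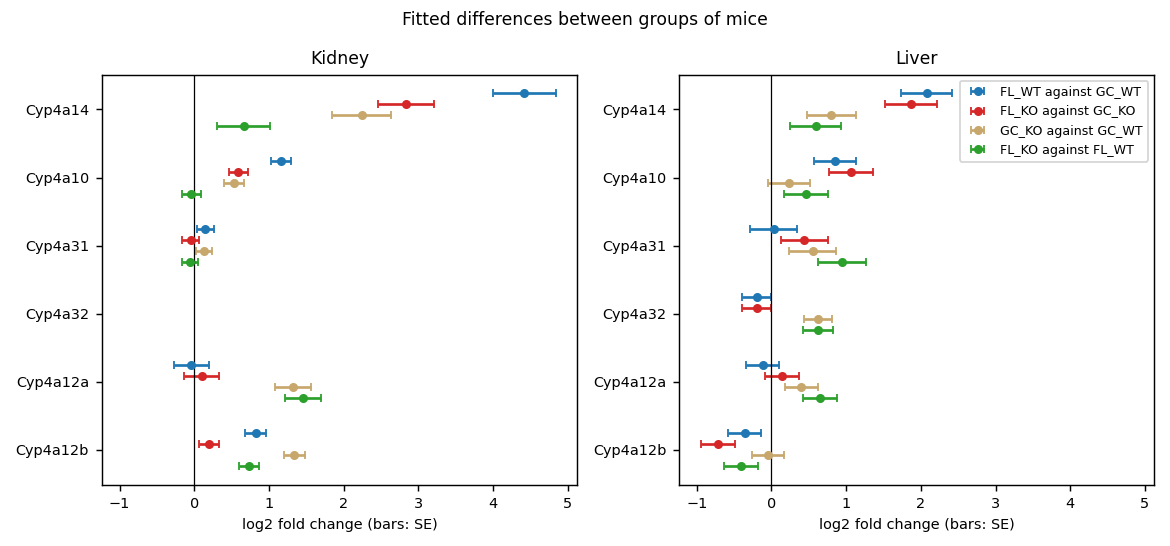
Log2 fold change and SE of each Cyp4a gene in kidney and liver for 4 contrasts, from 1 fit per tissue. Cyp4a14 has the largest flight estimates in both tissues (4.42 and 2.84 in kidney, 2.08 and 1.87 in liver), and the genotype estimates of Cyp4a12a in kidney are 1.32 and 1.46. Cyp4a32 was not fitted in kidney.

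Next, the genotypes were compared, with p-values that are not independent of the choice of the members. In Kid, 3 of 5 members tested were called higher in GC_KO than in GC_WT at an adjusted p under 0.05 in edgeR's quasi-likelihood test, against 0.569% of all 15114 genes called higher and 1.04% called lower. These were Cyp4a14 (2.24 ± 0.395, adjusted p = 0.00938), Cyp4a12a (1.32 ± 0.239, adjusted p = 0.0113) and Cyp4a12b (1.34 ± 0.137, adjusted p = 0.000109). None of them overlapped between genotypes, but the share of all genes without overlap was not counted. Cyp4a12a and Cyp4a12b share 40.6% and 41.1% of their 76-base words with each other, so their calls are not separate results. With the counts of both summed, the pair stayed called. How far the Cyp4a12b difference reflects reads of Cyp4a12a was not tested. Cyp4a10 was higher in all 3 GC_KO mice but not called by edgeR (0.53 ± 0.131, adjusted p = 0.0756), whereas DESeq2 called it (adjusted p = 0.00459), and Cyp4a31 was not called (0.13 ± 0.109, adjusted p = 0.73). With 1 mouse fewer, some adjusted p-values passed 0.05 while the differences stayed of like size. For Cyp4a14 the log2 fold change was 2.04 both without GC_WT mouse 06 (adjusted p = 0.068) and without 07 (adjusted p = 0.0613). For Cyp4a12a it was 1.19 without GC_WT mouse 07 (adjusted p = 0.0675), 1.34 without GC_WT mouse 10 (adjusted p = 0.0522) and 1.12 without GC_KO mouse 12 (adjusted p = 0.0583). Over all settings run, the adjusted p ranged from 4.52e-06 to 0.068 for Cyp4a14, from 1.66e-05 to 0.0675 for Cyp4a12a and from 5.05e-17 to 0.00151 for Cyp4a12b. With the pair summed, Cyp4a12b had no value of its own, so its range leaves that setting out.

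Among flown mice, 2 of 5 members were called higher in FL_KO than in FL_WT Kid (background 0.509% higher, 1.32% lower). Cyp4a12a differed by 1.46 ± 0.239 (adjusted p = 0.00506) and Cyp4a12b by 0.73 ± 0.132 (adjusted p = 0.0107). As these genes share reads, their calls are again not separate results. For Cyp4a12b the difference was 0.63 without FL_KO mouse 01 (adjusted p = 0.0529) and 0.62 without FL_WT mouse 08 (adjusted p = 0.0642), neither of which was called. Cyp4a14 differed by 0.66 ± 0.350 (adjusted p = 0.462), Cyp4a10 by -0.04 ± 0.130 and Cyp4a31 by -0.06 ± 0.109. These flown mice are the same as in the flight contrasts above.

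In Liv, 0 of 6 members were called between GC_KO and GC_WT (background 0.938% higher, 1.7% lower) or between FL_KO and FL_WT (1.36% higher, 2.29% lower) by edgeR. At an unadjusted p under 0.05 stood 2 members in the first contrast, Cyp4a14 and Cyp4a32, and 3 in the second, Cyp4a12a, Cyp4a31 and Cyp4a32. Cyp4a32 had the lowest adjusted p in both, with log2 fold changes of 0.62 ± 0.191 (adjusted p = 0.0959) and 0.62 ± 0.200 (adjusted p = 0.0954) in edgeR. DESeq2 called it between the ground groups (adjusted p = 0.0467) but not between the flown groups (adjusted p = 0.0521), and limma on log2(TPM + 1) called it in both (adjusted p = 0.0296 and 0.0159). Its median was 24.3 TPM in GC_WT, 38.8 in GC_KO, 23 in FL_WT and 31.9 in FL_KO, with overlapping genotypes.

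Whether the flight response itself differed between genotypes was tested as an interaction. By edgeR, 0 of 5 members were called in Kid and 0 of 6 in Liv, where 0.0% of all genes were called in either tissue, and DESeq2 and limma also called 0 members. Without adjustment, 3 members in Kid had p under 0.05, namely Cyp4a14 (-1.58 ± 0.522), Cyp4a10 (-0.57 ± 0.185) and Cyp4a12b (-0.61 ± 0.189), all with adjusted p = 1.0 and a smaller fold in Nrf2-KO mice. In each of these, GC_KO mice started from a higher level than GC_WT mice. In Liv 0 members had p under 0.05, and the Cyp4a14 estimate was -0.21 ± 0.476. A difference between genotypes in the Kid response was therefore not established by these tests.

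PPARα is the receptor through which Cyp4a10 and Cyp4a14 are usually induced, and 44 other target genes of this receptor were followed beside them, of which 40 were tested in each tissue. In Liv 17 of 40 rose in FL_WT against GC_WT and 0 fell, against 1.53% of all 13433 genes called higher and 1.91% lower, and the median log2 fold change was 0.48 against 0.00 over all genes. They included Fgf21, a fasting hormone (4.56 ± 0.459, adjusted p = 4.78e-06) and Plin2, a lipid droplet coat protein (0.83 ± 0.150, adjusted p = 0.00413), both by edgeR. In Nrf2-KO mice, again 17 rose and 0 fell (background 1.31% higher, 2.02% lower), with a median of 0.52, and 14 of the 20 genes called in either genotype were called in both. Without FL_KO mouse 01 the count in Nrf2-KO mice was 8 and without mouse 02 it was 11. With the mouse number as a replicate block, the counts were 28 in WT and 22 in Nrf2-KO mice.

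The list was also followed in Kid. There so few of all genes were called that a count of 0 does not set the list apart. By edgeR, 0 of the 40 target genes were called in FL_WT against GC_WT (background 0.0992% higher, 0.0198% lower) and 0 in FL_KO against GC_KO (0.0662% higher, 0.0926% lower), although 6 and 5 were higher, and 0 and 1 lower, at an unadjusted p under 0.05. The median log2 fold changes were 0.08 and 0.11, against 0.00 and 0.01 over all genes. DESeq2 called 1 in WT and 0 in Nrf2-KO mice, and limma called 0 in either. The Kid and Liv counts come from separate fits with 3 and 5 to 6 mice per group, and the difference between tissues was not tested. Between genotypes, edgeR called 2 of the 40 higher and 1 lower in Kid of GC_KO than of GC_WT mice. Among these, Mgll, a monoglyceride lipase, was higher (0.58 ± 0.10, adjusted p = 0.00835) and Cd36, a fatty acid transporter, lower (-0.60 ± 0.127, adjusted p = 0.0298). In Liv, Cd36 was lower in GC_KO than in GC_WT (-1.33 ± 0.217, adjusted p = 0.000419), the single call among the 40.

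**Figure D4:**
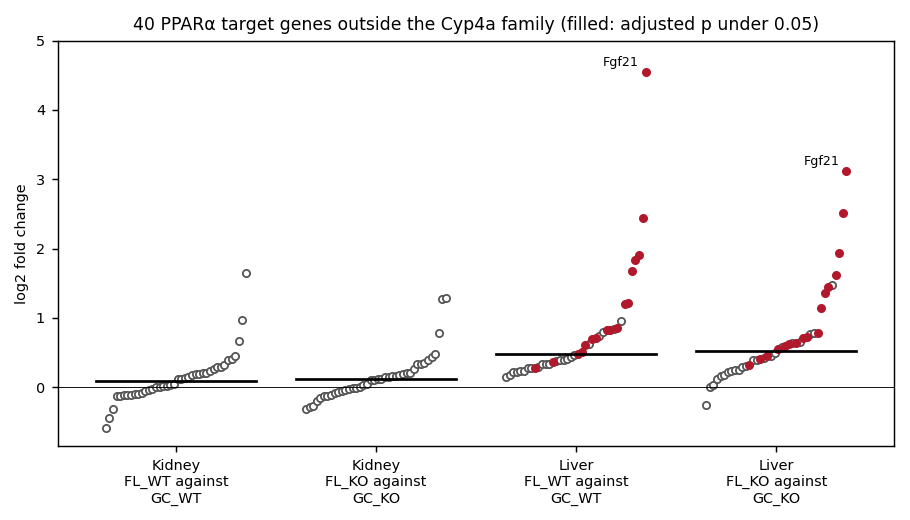
Log2 fold changes between flown and ground mice of the 40 PPARα target genes tested outside the Cyp4a family, ordered by value within each contrast; filled points have an edgeR adjusted p under 0.05 and bars mark the medians. In liver 17 points are filled in each genotype around medians of 0.48 and 0.52, and in kidney none is filled around medians of 0.08 and 0.11.

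The product of ω-hydroxylation is passed to alcohol and aldehyde dehydrogenases and then to peroxisomal β-oxidation. Of 24 such partner genes, 8 of which are also among the PPARα targets, all 24 were tested in Liv. In FL_WT Liv 4 rose and 1 fell (over all genes 1.53% and 1.91%), and in FL_KO Liv 5 rose and 3 fell (1.31% and 2.02%) against their ground groups. Crat and Crot, which make acylcarnitines in peroxisomes, were higher by 0.82 ± 0.169 and 0.63 ± 0.137 in WT mice, and Aldh3a2, a fatty aldehyde dehydrogenase, by 0.70 ± 0.146. Nudt7, a peroxisomal coenzyme A diphosphatase, fell by 1.05 on the log2 scale. Over all Kid genes edgeR called 0.0992% higher and 0.0198% lower in the WT flight contrast, and 0.0662% and 0.0926% in the Nrf2-KO one. In Kid, 0 of 23 tested partners were called between flown and ground mice by edgeR, DESeq2 or limma. At an unadjusted p under 0.05 were 2 partners in the WT contrast, both higher, and 3 in the Nrf2-KO contrast, 1 of them higher. Cyb5a, the cytochrome that can pass electrons to P450s, was lower in GC_KO than in GC_WT Kid (-0.53 ± 0.0798, adjusted p = 0.00282), with 904 TPM in GC_WT and 635 in GC_KO.

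Other Cyp4 genes were followed as well. Of the 15 listed, 8 were tested in Kid, where edgeR, DESeq2 and limma called 0 in any of the 4 contrasts, where edgeR called 0.0992% of all genes higher in FL_WT than in GC_WT and 0.569% higher in GC_KO than in GC_WT. At an unadjusted p under 0.05 stood 1 higher and 1 lower in FL_KO against GC_KO, and 1 higher in GC_KO against GC_WT. In Liv 7 were tested, of which Cyp4v3, an ω-hydroxylase with a broad range of tissues, was called higher in GC_KO than in GC_WT (0.39 ± 0.0969, adjusted p = 0.0259) and lower in FL_KO than in GC_KO (-0.51 ± 0.102, adjusted p = 0.00575). Of 15 listed genes of the competing arachidonate routes, 14 were in the table and 10 were tested in Liv. There 2 rose and 0 fell in FL_WT, 1 rose and 1 fell in FL_KO against their ground groups, and 0 were higher and 1 lower in GC_KO than in GC_WT (over all genes 0.938% and 1.7%). Cyp2c38 (1.42 ± 0.171, adjusted p = 4.52e-05) and Cyp2j9 (0.77 ± 0.165, adjusted p = 0.0119), both P450s of the epoxygenase families, were those that rose in FL_WT Liv. Ephx1, an epoxide hydrolase that is a classical Nrf2 target, was lower in GC_KO than in GC_WT Liv (-1.68 ± 0.113, adjusted p = 5.1e-10).

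Since Cyp4a12a is male-biased, sex-biased genes were examined as well. Over all Kid genes edgeR called 0.0992% higher and 0.0198% lower in FL_WT against GC_WT. In FL_KO against GC_KO these shares were 0.0662% and 0.0926%, so a count of 0 does not set a list apart. In Kid edgeR called 0 of 8 tested male-biased genes between flown and ground mice in either genotype, with medians of -0.24 and -0.27. At an unadjusted p under 0.05, 3 were lower in WT, and 4 were lower and 1 higher in Nrf2-KO mice. DESeq2 called 1 and 2 of them lower, and limma 0. Cyp7b1, an oxysterol hydroxylase, was lower in GC_KO than in GC_WT Kid (-0.96 ± 0.112, adjusted p = 0.000359), opposite to Cyp4a12a. Of 5 genes tested in Kid from the female-biased list, Slc7a12, an amino acid transporter, rose with flight in WT (2.77 ± 0.437, adjusted p = 0.0297) and in Nrf2-KO mice (2.20 ± 0.373, adjusted p = 0.0435). Hao2, a peroxisomal hydroxy acid oxidase, was higher (1.65 ± 0.134) and Cyp2a4, a steroid hydroxylase, lower (-0.79 ± 0.10) in GC_KO than in GC_WT Kid. The same list served Kid and Liv. All mice were male, so a female bias in Kid could not be checked, and Cyp2a4 was at 539.3 TPM in GC_WT Kid. In Liv 1 of 9 male-biased genes, Cyp7b1, fell in FL_WT (-1.06 ± 0.271, adjusted p = 0.0324), and Mup20, a major urinary protein, was lower in GC_KO than in GC_WT (-0.98 ± 0.158, adjusted p = 0.000362), where Cyp4a12a was not called (0.40 ± 0.218). Cyp2a4 was called lower in FL_WT and in GC_KO than in GC_WT Liv by edgeR, but its GC_WT level was 29.0 ± 67.6 TPM (n = 6) and neither DESeq2 nor limma called a female-biased gene lower there. Of 18 regulators, including Ppara and Rxra, edgeR, DESeq2 and limma called 0 of those tested in Kid (17 by edgeR) in any of the 4 contrasts, with 2 higher and 1 lower at an unadjusted p under 0.05 in FL_KO against GC_KO and 0 in the other contrasts. Over all Kid genes edgeR called at most 1.32% in a direction of any contrast, so 0 does not set the regulators apart. In Liv, Pparg rose in FL_WT (0.69 ± 0.191, adjusted p = 0.0465), and Nr1i3, the receptor CAR, was lower in GC_KO than in GC_WT (-1.96 ± 0.194, adjusted p = 2.79e-07).

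The genes whose levels followed Cyp4a14 most closely were ranked by Pearson's r of log2 CPM over the mice of a tissue. These correlations mix groups and are a description. Over 12 kidneys and 9450 genes, the top 5 outside the family were Slc7a12 (r = 0.956), Slc5a1 (0.938), Kcnk1 (0.928), Map2k1 (0.927) and Slc5a10 (0.924). Slc5a1 and Slc5a10 encode sodium-coupled sugar transporters and Kcnk1 a potassium channel. Cyp4a10 stood above all of them with r = 0.972, although it shares no 76-base word with Cyp4a14. Taken as deviations from the group means, the r of Slc5a10 was 0.145 and that of Cyp4a10 0.766. Over 23 livers and 7968 genes, the closest to Cyp4a14 were Ech1 (0.902), an enoyl-CoA isomerase, Retsat (0.870), a retinol saturase, Acot2 (0.867), a mitochondrial thioesterase, Apoh (0.862) and Cyp2c38 (0.856), and Cyp4a10 had r = 0.884. For Cyp4a12a the top genes were Sorbs2 (0.934), Them7 (0.929), Gm3608 (0.923), Fam149a (0.923) and Aadat (0.920) in Kid, but in Liv no gene exceeded Tmem82 (0.676), followed by C030006K11Rik (0.655), Cyb5rl (0.628), Bmyc (0.616) and Rcn3 (0.597). In Liv, Cyp4a12a and Cyp4a14 had r = 0.035.

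Outside Kid and Liv the family was scarce. No member passed the filter on low counts in spleen (Spl), thymus (Thy) or cerebrum (Cbr), where the highest TPM of any member was 2.13, 0.56 and 0.69. In 4 tissues 1 to 3 members passed, and of 32 pairs of member and contrast tested there 1 was called by edgeR, against 4.58% of all genes and contrasts, and 3 had an unadjusted p under 0.05. DESeq2 called 1 and limma 0 of the 8 pairs it tested. The edgeR call was Cyp4a14 in interscapular brown fat (iBAT), higher in FL_WT than in GC_WT (3.39 ± 0.948, adjusted p = 0.015, background 8.83% called higher, with the median gene shifted by 0.329 on the log2 TPM scale). Its TPM was 0.07, 0.20, 0.38, 0.81, 3.90 and 4.18 in FL_WT and 0.03 to 0.24 in GC_WT, so that 2 mice, 08 and 05, carried most of it. Those libraries also held the most albumin transcripts (Alb, made by hepatocytes), 72.6 and 125 TPM against at most 58.3 elsewhere in iBAT, and the summed hepatocyte list ran from 0.22 to 227 TPM in FL_WT and from 0.08 to 33.4 in GC_WT. Without them the log2 fold change was 1.28 and the call was lost (adjusted p = 0.373), an alternative chosen after seeing the data.

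Epididymal white fat (eWAT) showed the same co-occurrence in every group. Cyp4a14 was at most 1.14 TPM except in 6 libraries with 1.74 to 12.6 TPM, all of which had Alb of 95.3 TPM or more, and 4 of the 5 libraries with the most Alb were among the 5 with the most Cyp4a14. In FL_WT mouse 05, with 452 TPM of Alb, Cyp4a14 was at 12.6, Cyp4a10 at 9.77 and Cyp4a12a at 4.50 TPM, while the other FL_WT mice had at most 28.9 TPM of Alb and 1.14 of Cyp4a14. The part of liver RNA in these values was not tested.

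**Figure D5:**
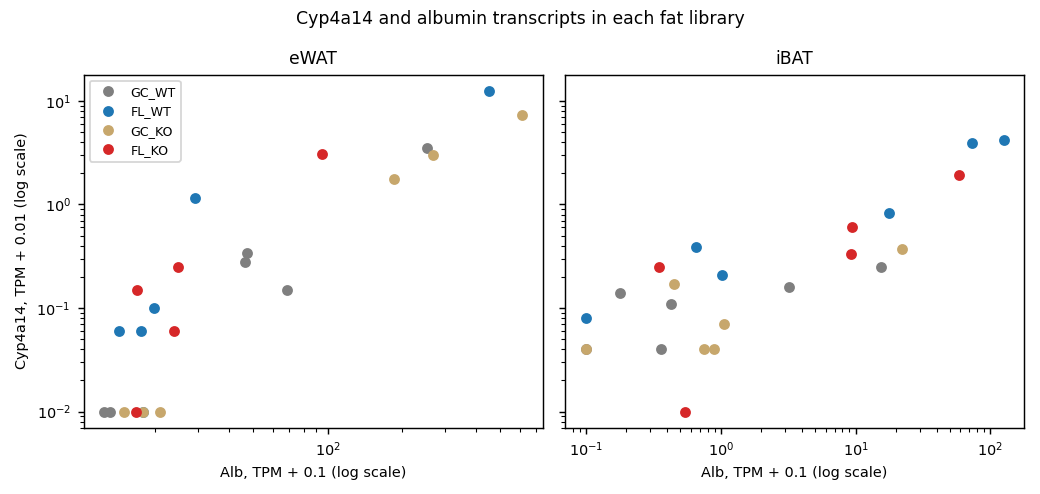
Cyp4a14 against albumin transcripts in each library of eWAT and iBAT, both on log axes with offsets of 0.01 and 0.1 TPM, coloured by group. The libraries with the most Cyp4a14 (12.6 TPM in eWAT, 4.18 in iBAT) lie at 452 and 125 TPM of Alb.

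Temporal bone (TpB) was the single tissue outside Kid and Liv in which the Cyp4a12 pair exceeded 1 TPM in nearly all mice. Cyp4a12a was at 1.10 to 24.2 TPM and Cyp4a12b at 1.99 to 23.8 in 22 of 23 libraries, and GC_WT mouse 03 had 0.0 and 0.09. Cyp4a14 was at most 0.64 TPM and Cyp4a10 at most 0.48 in the same libraries, Alb was at most 49.7 TPM, and the proximal tubule transporter Slc34a1 was at most 0.21. The summed hepatocyte list ran from 14.7 to 92.2 TPM outside GC_WT and from 20.1 to 2173 in GC_WT, and the summed proximal tubule list from 32.5 to 212.3 TPM over all groups. In GC_WT, Alb was at most 12.4 and Apoa1 at most 3.68 TPM, so the sum of 2173 came mostly from other genes of that list. The part of liver or kidney RNA in the Cyp4a12 values was not tested. Cyp4a12b made up 51.5% ± 15.6 of both Cyp4a12 genes there, above its share in either Kid or Liv on average. Skeletal muscle markers, summed over 5 genes, varied from 9.96 to 21890 TPM among TpB libraries. They did not move with Cyp4a12a in every library. The muscle actin Acta1 was at 7626 and 3498 TPM in GC_KO mice 04 and 12, which had the most Cyp4a12a, and at 2.66 in GC_KO mouse 01 with 1.10 TPM of Cyp4a12a, but at 3435 in GC_WT mouse 03, which had none. The part of muscle RNA was not tested. Neither Cyp4a12 gene was called in TpB by edgeR, DESeq2 or limma in any of the 4 contrasts, and 0 had an unadjusted p under 0.05.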

How the data were processed

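RNA-seq libraries were made with a strand-specific kit and read as 76-base single reads, per the paper's methods. They were made from poly(A) RNA, except in Thy, where ribosomal RNA was depleted instead. TPM in Thy is therefore not on a like scale with the other tissues. The authors aligned reads to mm10 with STAR 2.6.1 and quantified GENCODE vM20 genes with RSEM 1.3.1, and deposited expected counts, which divide reads that fit several genes among them, and TPM. The strand setting of the counting is not given in the sources used here. A further 192 columns of FPKM were not used. Coordinates and transcript sequences were taken from GENCODE vM21 (GRCm38), in which 54723 of the 54752 gene identifiers were found once version numbers were dropped.

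Expected counts were rounded and fitted tissue by tissue with edgeR 4.0.16 under R 4.3.3 (filterByExpr by group, TMM, quasi-likelihood test, 4 groups in 1 fit), with Benjamini-Hochberg adjustment over all genes tested and a threshold of 0.05. In simulated data with known changes, the Kid fit of FL_WT against GC_WT recovered 86.0% of 107 genes changed by 1 on the log2 scale and 100.0% of 93 changed by 2, with 16 false calls among 15023 genes, and the Liv fit recovered 100.0% of both with 7 false calls among 13282 genes. The simulation gave every gene the same spread and changed only genes above a minimum level. It therefore does not give the recovery for genes with a wider spread between mice. Further settings tried were limma 3.58.1 on log2(TPM + 1), DESeq2 1.42.0, RLE factors, no filter, FL_KO mouse 04 included, 2 groups per fit, summed paralogs, a replicate block and single mice left out. TPM is per length; it is not scaled between groups, and the median gene shifted by up to 0.157 (log2) between Liv groups and 0.075 between Kid groups.

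The members, gene lists and tests were chosen with earlier results of these data known. Beside the members, the text names the 3 genes with the smallest adjusted p in each direction per list, tissue and contrast (FL_WT against GC_WT, GC_KO against GC_WT), the 5 genes most like Cyp4a14 and Cyp4a12a (log2 CPM with a prior count of 1, mean TPM of at least 5), and markers that differed. A word was a run of 76 transcript bases. Mice sharing a number are different animals, and their paired deviations were checked in Liv. All 5 Nrf2-KO pairs correlated above 0.1 (0.202 to 0.338) and 3 of 6 WT pairs did (0.0148 to 0.301). Adjusted p-values judge a difference between groups against the spread between mice, estimated over all groups of a tissue together. Some genes of the lists are counted but not reported by name here.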

Additional observations from a re-analysis of the deposited data

Results flagged for a closer look

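Of 52 pairs of a tested member and a group of 5 or 6 mice, 13 held a mouse far from the others. Chance gives about 1 in 20 for a single pair. Members measured in the same library are not independent, so the 13 cannot be set against that rate. Most of the 13 were in eWAT. In GC_WT, mouse 10 was above the others in Cyp4a10 (4.58 TPM), Cyp4a12a (1.80 TPM) and Cyp4a14 (3.51 TPM). In FL_WT, mouse 05 was above the others in Cyp4a10 (9.77 TPM), Cyp4a12a (4.50 TPM) and Cyp4a14 (12.58 TPM). In FL_KO, mouse 01 was above the others in Cyp4a10 (2.0 TPM), Cyp4a12a (0.75 TPM) and Cyp4a14 (3.09 TPM), and in GC_KO mouse 09 was above them in Cyp4a10 (7.01 TPM). These 4 libraries had 253.55, 452.34, 95.27 and 613.33 TPM of Alb, in that order, and the part of liver RNA in them was not tested. In iBAT, GC_WT mouse 06 was above the others in Cyp4a10 (0.65 TPM), with 0.08 TPM of Alb. In TpB, GC_WT mouse 03 was below the others in Cyp4a12a (0.0 TPM), and FL_WT mouse 03 above them in Cyp4a12b (16.85 TPM).

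Flight mouse 04, an Nrf2-KO mouse left out of the comparisons, had 1614 TPM of Cyp4a10, 2338 of Cyp4a14, 19.71 of Cyp4a31 and 76.54 of Cyp4a32 in Liv. Each value was above every GC_KO mouse, the highest of which had 535.1, 481.9, 11.01 and 50.45 TPM, and above every other FL_KO mouse.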

How the results depend on the processing

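Cyp4a14 kept its flight direction in Kid and Liv under every setting run, with 4.22 to 4.92 in WT and 2.48 to 3.08 in Nrf2-KO Kid. For the other results the cause of a change was not tested. In Kid, the members called between GC_KO and GC_WT numbered 1 to 3 and those between FL_KO and FL_WT 1 to 2 when 1 mouse was left out, with 1 without GC_WT mouse 07 in the first and without FL_KO mouse 01 or FL_WT mouse 08 in the second. In Liv, DESeq2 and limma each called 1 member between GC_KO and GC_WT, and between FL_KO and FL_WT limma called 1 and the fit with FL_KO mouse 04 included called 2, Cyp4a31 and Cyp4a32. In iBAT 0 members were called without the FL_WT libraries 05 and 08, a setting chosen after seeing the data. PPARα targets called higher in FL_WT Liv numbered 29 by limma, which tested 39, and 28 with the replicate block. In FL_KO Liv they numbered 30 by limma, 7 with only both groups of the contrast in the fit, and 8 to 19 when 1 mouse was left out. In FL_WT Kid they numbered 1 by DESeq2, without the filter and with only both groups, and 0 to 1 when 1 mouse was left out. In FL_KO Kid they numbered 1 without the filter and 0 to 2 when 1 mouse was left out.

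Some estimates changed sign, and not all of these were near 0. In Kid, Cyp4a10 in FL_KO against FL_WT ran from -0.12 to 0.01 with 1 mouse left out, and the Cyp4a12a interaction from -0.14 to 0.34. The Liv interaction of Cyp4a32 was -0.01 without the filter, -0.02 with the replicate block and -0.15 to 0.08 with 1 mouse left out. Without the 2 iBAT libraries, Cyp4a14 in FL_KO against FL_WT went from -1.37 to 0.75. The interaction went from -1.4 to 0.72 for Cyp4a14 and from -1.0 to 0.5 for Cyp4a10. In TpB, FL_WT against GC_WT was -0.11 by edgeR and 0.3 by limma for Cyp4a12a, and -0.52 and 0.17 for Cyp4a12b. Cyp4a12a was -0.55 and 0.0 in FL_KO against GC_KO, and 0.14 and -0.02 in FL_KO against FL_WT. The log2 ratio of Liv over Kid for Cyp4a12a turned to 0.48 in GC_KO and 0.52 in FL_KO on CPM in place of TPM. The block was not used in Kid, where mice share at most 2 numbers per genotype, nor for genotype contrasts, which it cannot estimate. In the simulated data with 3 mice per group, differences of 1 on the log2 scale were missed in part.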
